A study of Homo sapiens with 4 samples.

Results

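The genes followed here were the 10 listed members of the MYC, MAX and MXD network, namely MYC, MYCL, MAX, MXD1, MXD3, MXD4, MXI1, MNT, MLX and MGA. They were found by gene symbol, and all 10 were present among the 28729 genes of the table. Transcripts were measured by RNA-seq in 4 cultures of TU-177, an established human line of laryngeal squamous cell carcinoma (LSCC). The NC group held 2 cultures with a control shRNA and the SKA3-KD group held 2 with an shRNA against SKA3, a kinetochore protein of the spindle, and replicates were numbered 1 and 2 in each. The shRNAs came from lentiviruses, and puromycin selection was started 48 h after transduction in both groups. The labels name no shRNA sequence and do not say whether the cultures of a group came from separate transductions, so the p-values measure the spread between these samples, which may be technical. The study also describes other ways of lowering SKA3, by siRNA and by sgRNA, and the labels of these libraries name only shRNA.

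MYC is a transcription factor of the basic helix-loop-helix leucine zipper class that binds the E-box, CACGTG, as a pair with MAX, and the pair activates genes of growth, ribosome production and metabolism. MAX also pairs with the MXD proteins (MXD1, MXD3, MXD4 and MXI1), with MNT and with MGA, and these pairs repress E-box genes, so that MAX is the shared partner for which activators and repressors compete. MLX is a relative of MAX that pairs with MondoA (MLXIP) and ChREBP (MLXIPL), the glucose-sensing arm of the network, and with some MXD proteins. The libraries show the transcripts of the network after SKA3 was lowered.

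Levels are FPKM, read fragments divided by exon length and by library size, so they can be compared between genes. Changes are differences in log2(FPKM + 1), SKA3-KD minus NC, tested with limma over the 12645 genes whose mean reached 1 FPKM, and they understate the change of genes near that limit. A gene is said to have risen or fallen only at a Benjamini-Hochberg adjusted p under 0.05. SKA3 itself stood at 9.40 and 9.64 FPKM in NC and at 3.77 and 4.12 FPKM in SKA3-KD, or 41.4% of the NC mean. It fell by 1.09 on the log2 scale (standard error 0.07, limma adjusted p = 0.00806), a call that was lost on leaving out NC 1 or NC 2 (highest adjusted p = 0.066). Library sizes, read from the steps of the FPKM values, were 9015056 to 11966130 reads. The 8 squamous markers summed to 193 and 208 FPKM in NC and 167 and 189 FPKM in SKA3-KD, and KRT17 fell (limma adjusted p = 0.0396). KRT17 and SFN were high (29.4 to 49.1 and 133 to 155 FPKM), while KRT5, KRT14 and KRT6A did not exceed 0.103 FPKM in any library and TP63 and CDH1 did not exceed 0.580 and 0.447 FPKM. Of 7 fibroblast markers 6 were in the table, and their summed level was 15.4 and 15.8 FPKM in NC against 8.86 and 9.56 FPKM in SKA3-KD, with DCN falling by 1.46 (limma adjusted p = 0.0065) and COL1A2 at or near 0 in every library. Of the 3 fibroblast markers tested, 2 had a change below 0 and 1 above it, PDGFRB, at 2.88 and 2.46 FPKM in NC and 3.19 and 4.13 FPKM in SKA3-KD. The part of these markers in the results on the network was not tested. The summed leukocyte and endothelial markers (5 of 7 in the table) lay between 0.895 and 1.46 FPKM.

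RefSeq promoter windows of 250 bases before and 50 after the start site (GRCh38.p14) were matched by symbol for 9 of the 10 genes, all but MYC, and MXI1, MAX and MGA have several start sites each. The letters CACGTG, which read the same on both strands, stood in the windows of 3 of these 9 genes (33.3%), MXD4, MNT and MLX, against 12.9% of the tested genes with a window and 8.77% of all genes with one. The 250 bases upstream of the start site are shown for these 3 genes, since they are the ones in which the E-box can be seen, with CACGTG in capitals. The windows lie at chr4:2262110-2262359 (minus strand) for MXD4, chr17:2401061-2401310 (minus strand) for MNT and chr17:42566850-42567099 (plus strand) for MLX.
MXD4: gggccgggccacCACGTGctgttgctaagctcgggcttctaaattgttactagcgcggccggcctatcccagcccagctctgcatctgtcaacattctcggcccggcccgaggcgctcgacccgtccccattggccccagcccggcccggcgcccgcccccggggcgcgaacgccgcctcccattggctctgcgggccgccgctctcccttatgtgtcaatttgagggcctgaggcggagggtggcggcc
MNT: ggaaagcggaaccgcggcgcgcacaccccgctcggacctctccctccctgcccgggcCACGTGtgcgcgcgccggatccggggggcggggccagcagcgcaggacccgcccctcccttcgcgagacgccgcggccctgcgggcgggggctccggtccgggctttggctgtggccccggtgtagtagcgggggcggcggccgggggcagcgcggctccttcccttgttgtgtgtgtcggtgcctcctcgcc
MLX: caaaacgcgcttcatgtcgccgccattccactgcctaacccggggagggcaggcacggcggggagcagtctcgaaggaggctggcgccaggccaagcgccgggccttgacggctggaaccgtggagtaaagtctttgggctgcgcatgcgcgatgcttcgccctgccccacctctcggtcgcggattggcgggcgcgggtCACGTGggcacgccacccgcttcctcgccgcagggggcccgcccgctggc
The E-box began 238 bases before the start site in MXD4, 193 in MNT and 50 in MLX. In SKA3-KD, MXD4 stood at 79.1%, MNT at 99.9% and MLX at 105% of the NC mean, and none of the 3 passed the test. The windows of MAX and MXI1 do not hold these letters, and the window of SKA3 does not either. The paper searched a longer stretch upstream of SKA3 and predicted c-Myc sites in it. It also reports c-Myc binding to the SKA3 promoter by ChIP and lower activity of an SKA3 promoter reporter after MYC knockdown. SKA3 levels are further reported as lower after MYC knockdown and higher with MYC overexpression. A positive correlation of MYC with SKA3 in LSCC tumours is reported as well. The window used here covers only part of that stretch, so the lack of these letters does not bear on those results. A match describes the letters of the window and is no evidence of binding in these cells.

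In the SKA3-KD cultures MYC was lower, and so were its partner MAX and all 4 MXD genes in both libraries, while the SKA3-KD means of MNT, MGA and MLX were 99.9%, 103% and 105% of NC. MYC was the 1 gene of the 9 tested that passed the threshold, where 6.11% of all genes tested were called lower and 6.16% higher. No member was called higher. At an unadjusted p under 0.05 the count was 4 lower (MYC, MAX, MXD4 and MXI1) and 0 higher, against 15.1% and 16.2% of all genes. Limma voom on the reads recovered from the FPKM steps called the same 4 genes lower and 0 higher, against 12.1% and 13.5% of all genes. The median change of the 9 was -0.25 against 0.01 over all genes tested, and taken per SKA3-KD library it was -0.28 and -0.21. In 6 of the 9 tested genes both SKA3-KD libraries lay below both NC libraries, where 29.2% of all genes tested did so, and in 1 (MLX) both lay above, where 32.3% did. MXD1, which counts in these 6 and in the median, reached the limit of 1 FPKM only through NC. Its means were 1.18 FPKM in NC and 0.884 FPKM in SKA3-KD, so the filter favoured a lower value for it. In bulk RNA, less RNA per cell and fewer cells with much of it cannot be told apart.

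**Figure D1:**
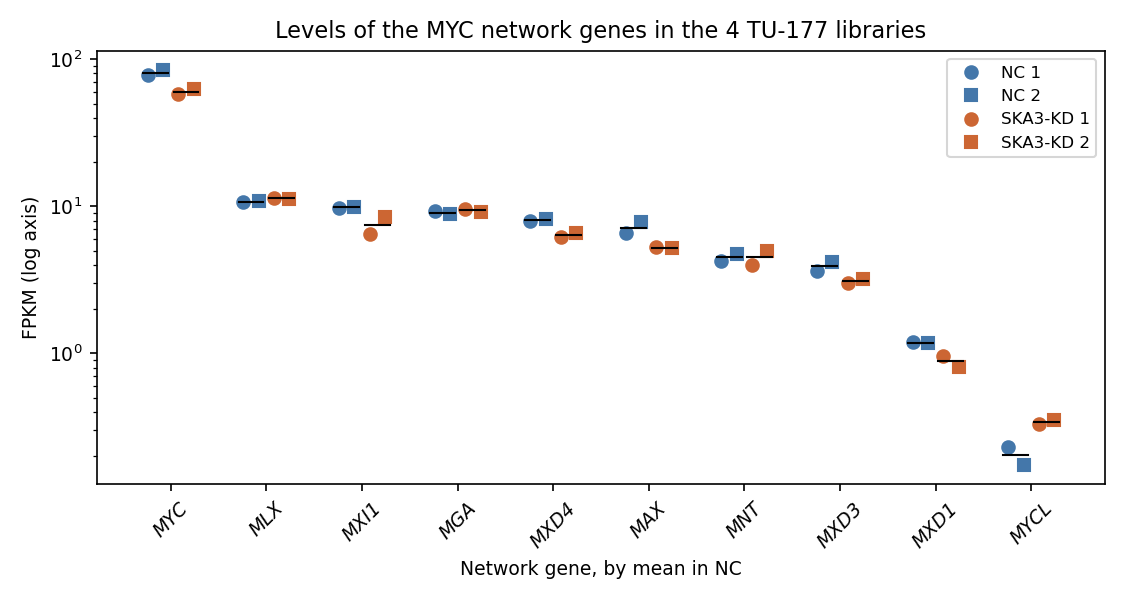
FPKM (log axis) of the 10 network genes in each library, ordered by the NC mean, with NC in blue and SKA3-KD in orange, replicate 1 as circles and replicate 2 as squares, and black lines for the means of 2 libraries. MYC lies far above the others, at 57.7 to 83.9 FPKM, and for MYC, MAX and the 4 MXD genes the orange points lie below the blue ones.

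The network was dominated by MYC at the transcript level. MYC stood at a mean of 80.8 FPKM in NC and 60.2 FPKM in SKA3-KD, above 96.1% and 94.3% of the genes tested. In NC the order below it was MLX (10.7), MXI1 (9.86), MGA (9.07), MXD4 (8.09), MAX (7.17), MNT (4.50), MXD3 (3.90), MXD1 (1.18) and MYCL (0.203 FPKM). No neighbours in this order overlapped between the 2 NC libraries. In SKA3-KD, MGA stood above MXI1, and the levels of MXI1 (6.44 and 8.43 FPKM) and MXD4 (6.17 and 6.62 FPKM) overlapped, while all other neighbours were apart. The shared partner MAX was the sixth of 10 in both groups, and MYC exceeded it 11.9-fold and 10.7-fold in the NC libraries and 11.0-fold and 12.1-fold in the SKA3-KD libraries. These ratios overlapped between the groups.

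MYC (ENSG00000136997), the activator, stood at 77.7 and 83.9 FPKM in the NC libraries and at 57.7 and 62.7 FPKM in the SKA3-KD libraries. These levels rest on 2784, 2264, 1759 and 2213 reads. Both SKA3-KD libraries were below both NC libraries, and the gap between the groups was wider than the gap within either. The means were 80.8 ± 4.36 FPKM in NC and 60.2 ± 3.50 FPKM in SKA3-KD (SD, n = 2 each), so that SKA3-KD held 74.5% of the NC level. MYC fell by 0.42 on the log2 scale (standard error 0.07, 95% interval -0.60 to -0.23, limma adjusted p = 0.0301). Set against the mean of NC, the first SKA3-KD library changed by -0.48 and the second by -0.36, while the NC libraries differed by 0.11. The call depended on the settings. It was lost without the filter on low FPKM (adjusted p = 0.0875, limma) and without the mean-variance trend (0.0662), and also on leaving out any 1 library (0.0853 to 0.131), whereas the size of the change ran only from -0.48 to -0.36.

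MYCL (ENSG00000116990), a paralogue of MYC found in neural and lung tumours, was nearly absent, with 14 and 8 reads in NC and 17 and 21 reads in SKA3-KD. Its levels were 0.231 and 0.175 FPKM in NC against 0.330 and 0.352 FPKM in SKA3-KD. Both SKA3-KD libraries were higher, but the gene lay under the limit of 1 FPKM and was not tested with the other 9. Without that limit its change was 0.16 (standard error 0.08, limma adjusted p = 0.441). No difference in MYCL was detected.

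MAX (ENSG00000125952), the common partner, stood at 6.53 and 7.81 FPKM in NC and at 5.26 and 5.17 FPKM in SKA3-KD. The NC libraries differed from each other more than the SKA3-KD libraries did. The groups did not overlap, but the gap between them was only about as wide as the gap between the NC libraries. SKA3-KD held 72.7% of the NC mean, a share close to that of MYC. Its change of -0.39 (standard error 0.10, 95% interval -0.64 to -0.14) missed the threshold with an adjusted p of 0.0654 in limma. It passed when only genes with a mean of at least 5 FPKM were tested (adjusted p = 0.0336, limma) and with limma voom on the recovered reads (adjusted p = 0.00883). The change was -0.28 without NC 2 and -0.50 without NC 1, so its size moved with the choice of NC library.

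**Figure D2:**
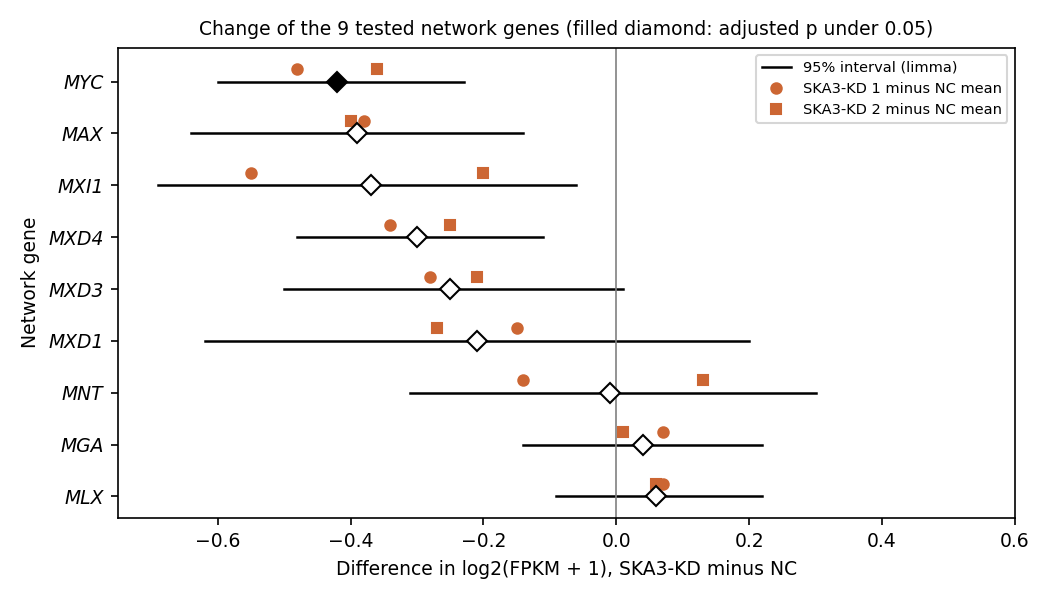
Change of the 9 tested network genes, SKA3-KD minus NC in log2(FPKM + 1), as diamonds with 95% intervals from limma, with each SKA3-KD library minus the NC mean as orange symbols above them. Only the diamond of MYC is filled (adjusted p under 0.05), and the intervals of MAX, MXI1 and MXD4 also lie below 0.

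The MXD proteins are the repressors that take MAX away from MYC and are typically raised as cells stop dividing and mature. All 4 of their genes were lower in both SKA3-KD libraries, and none passed the threshold. MXI1 (ENSG00000119950) stood at 9.80 and 9.92 FPKM in NC and at 6.44 and 8.43 FPKM in SKA3-KD. The NC libraries were almost equal and the SKA3-KD libraries far apart, with SKA3-KD 1 much the lower. Its change was -0.37 (standard error 0.12, limma adjusted p = 0.118), or -0.20 without SKA3-KD 1 and -0.55 without SKA3-KD 2. MXI1 passed only with limma voom on the recovered reads (adjusted p = 0.0111).

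MXD4 (ENSG00000123933) stood at 7.92 and 8.25 FPKM in NC and at 6.17 and 6.62 FPKM in SKA3-KD, with a narrow spread in both groups and no overlap. Its change was -0.30 (standard error 0.07, 95% interval -0.48 to -0.11, limma adjusted p = 0.0606), the nearest miss of the network. The adjusted p was 0.0409 when only genes of at least 5 FPKM were tested and 0.0106 with limma voom. MXD3 (ENSG00000213347), the member linked to dividing cells, stood at 3.62 and 4.18 FPKM in NC and at 3.01 and 3.22 FPKM in SKA3-KD. The groups did not overlap, but the gap between them was narrower than the gap between the NC libraries, and the change was -0.25 (standard error 0.10, limma adjusted p = 0.168).

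MXD1 (ENSG00000059728), the founding member of the family, was the least abundant of the 4. It stood at 1.19 and 1.18 FPKM in NC and at 0.964 and 0.805 FPKM in SKA3-KD, on 60 to 90 reads, and it reached the limit for testing only through NC. Its mean in SKA3-KD was 74.8% of that in NC, a share like that of MYC, but the change was -0.21 (95% interval -0.62 to 0.20, limma adjusted p = 0.416). With 0.1 FPKM added instead, the change was -0.39. Its adjusted p did not fall under 0.144 at any setting with all 4 libraries. Summed, the 4 MXD genes gave 22.5 and 23.5 FPKM in NC and 16.6 and 19.1 FPKM in SKA3-KD, or 77.5% of the NC mean.

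None of the other 3 tested genes passed, and whether their changes differ from that of MYC was not tested. MNT (ENSG00000070444), a repressor made in dividing and resting cells alike, stood at 4.24 and 4.77 FPKM in NC and at 4.0 and 5.0 FPKM in SKA3-KD. The lowest and the highest of these 4 values were both from SKA3-KD, and the change was -0.01 (95% interval -0.31 to 0.30, limma adjusted p = 0.979). MGA (ENSG00000174197), a very large protein that carries a T-box domain besides its helix-loop-helix and belongs to a Polycomb complex, stood at 9.33 and 8.80 FPKM in NC and at 9.58 and 9.14 FPKM in SKA3-KD. These groups overlapped, with a change of 0.04 (95% interval -0.14 to 0.22, limma adjusted p = 0.723). MLX (ENSG00000108788) stood at 10.7 and 10.8 FPKM in NC and at 11.3 and 11.2 FPKM in SKA3-KD. It was higher in both SKA3-KD libraries by a small margin, and the change was 0.06 (95% interval -0.09 to 0.22, limma adjusted p = 0.525). The interval of MYC itself was -0.60 to -0.23. Each interval describes the change of its own gene, so setting intervals side by side does not compare MYC with the 3 genes.

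**Figure D3:**
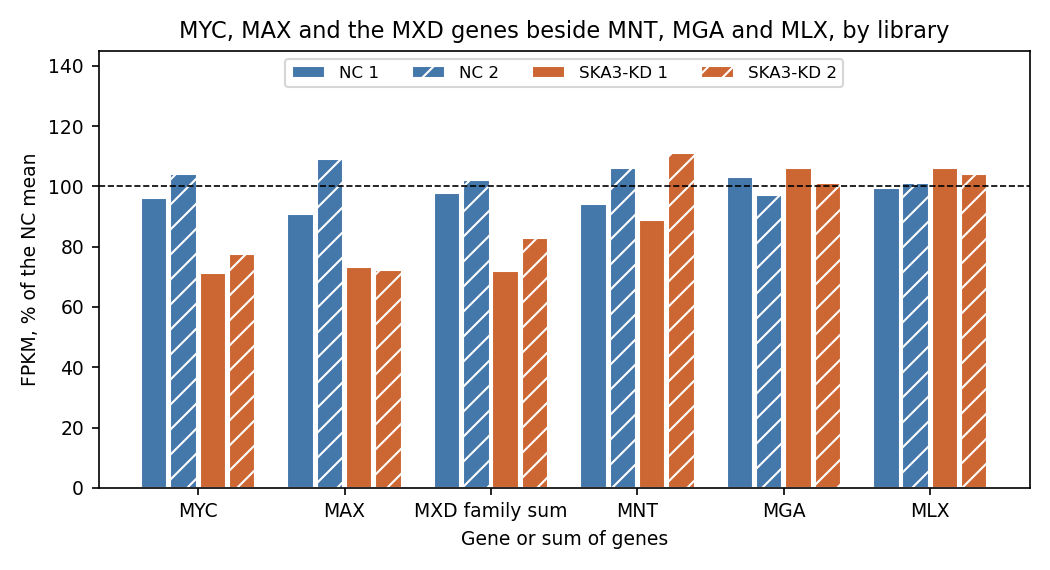
FPKM of MYC, MAX, the summed MXD genes, MNT, MGA and MLX in each library as a percentage of the NC mean (dashed line at 100). MYC, MAX and the MXD sum stand at 71.4% to 82.9% in the SKA3-KD libraries, and MNT, MGA and MLX at 88.7% to 111%.

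The ratio of the activator's transcript to those of its antagonists was followed per library, and protein levels were not measured in these libraries. MYC exceeded the MXD sum 3.45-fold and 3.56-fold in NC and 3.48-fold and 3.28-fold in SKA3-KD, and the groups overlapped. With MNT added to the repressors the ratio was 2.90 and 2.96 in NC against 2.80 and 2.60 in SKA3-KD, which did not overlap. Against MGA the ratio of MYC was 8.32 and 9.53 in NC and 6.02 and 6.85 in SKA3-KD, also apart. These ratios are built from levels already given, are shown as values only and were not tested. For single genes, both SKA3-KD libraries lay below both NC libraries in 29.2% of those tested and above them in 32.3%.

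The remaining genes of the network, all 3 given in full whatever their test, were MYCN, MLXIP and MLXIPL. MYCN, a MYC paralogue, stood at 1.06 and 0.639 FPKM in NC and at 0.604 and 0.456 FPKM in SKA3-KD, on 14 to 33 reads, and was under the limit for testing. MLXIP, the MondoA gene, stood at 7.61 and 9.09 FPKM in NC and at 9.13 and 9.52 FPKM in SKA3-KD (change 0.15, limma adjusted p = 0.36). MLXIPL, the ChREBP gene, stood at 1.87, 1.77, 2.27 and 1.53 FPKM in the same order of libraries (change 0.03, limma adjusted p = 0.931). ARRDC4, a target of MLX with MondoA, had a change of 0.15 that did not pass (limma adjusted p = 0.609).

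Proteins that act with MYC on chromatin were next followed as a list of 14 coactivator genes, all tested. KAT2A, the histone acetyltransferase GCN5, rose from 16.4 and 17.4 FPKM in NC to 22.8 and 23.3 FPKM in SKA3-KD (change 0.43, limma adjusted p = 0.0225). It was the 1 gene of 14 called higher, where 6.16% of all genes were, and none was called lower, where 6.11% were. The median was 0.19 over the list against 0.01 over all genes, and 12 of the 14 were above 0, as were 6520 of all 12645 genes tested. At an unadjusted p under 0.05 limma gave 0 lower and 6 higher, against 15.1% and 16.2% of all genes, and limma voom gave the same counts against 12.1% and 13.5%. The next list held 9 genes, namely corepressor genes of the MXD proteins and MNT and, besides them, ZBTB17, the gene of MIZ1. None of the 9 passed. At an unadjusted p under 0.05, 1 was lower and 3 were higher, against 15.1% and 16.2% of all genes, and limma voom gave the same counts against 12.1% and 13.5%. The most abundant was HDAC1, a histone deacetylase, at 69.5 and 69.7 FPKM in NC and at 74.0 and 76.2 FPKM in SKA3-KD (limma adjusted p = 0.236).

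Of 18 genes that set the stability of the MYC protein, none passed. The median was 0.09 against 0.01 over all genes, and 16 of the 18 had a change above 0, against 6520 of all 12645 genes. At an unadjusted p under 0.05, 1 was lower and 6 were higher in limma, against 15.1% and 16.2% of all genes, and limma voom called 1 lower and 4 higher, against 12.1% and 13.5%. SET, an inhibitor of the phosphatase that destabilises MYC, was the most abundant, at 404 and 382 FPKM in NC and 453 and 418 FPKM in SKA3-KD. SKP2, a ubiquitin ligase subunit that acts on MYC, stood at 51.2 and 49.9 FPKM in NC and at 56.3 and 58.1 FPKM in SKA3-KD. FBXW7, the best known ligase for MYC, was low in all libraries, at 0.934 to 1.18 FPKM. It was picked for that role and not by the naming rule.

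Among regulators of MYC transcription and of its mRNA, 10 of 12 were tested, 1 fell and 1 rose, where 6.11% of all genes were called lower and 6.16% higher. The median was 0.17 against 0.01 over all genes tested, and 8 of the 10 were above 0, against 6520 of all 12645 genes. At an unadjusted p under 0.05, 1 was lower and 5 were higher in limma, against 15.1% and 16.2% of all genes. Limma voom also called 1 lower and 5 higher, against 12.1% and 13.5%. FUBP1, which binds the far upstream element of the MYC promoter and activates it, fell from 46.0 and 42.5 FPKM in NC to 32.3 and 33.2 FPKM in SKA3-KD. Its change was -0.42 (standard error 0.07, limma adjusted p = 0.0249), the same size as that of MYC, and the groups were far apart. A link between these changes was not tested. IGF2BP1, a protein that binds and protects the MYC mRNA, rose from 7.93 and 7.40 FPKM to 10.7 and 10.5 FPKM (change 0.42, limma adjusted p = 0.0270). Its relatives IGF2BP2 and IGF2BP3 and the noncoding neighbour of MYC, PVT1, were named after their values were seen. IGF2BP2 and IGF2BP3 were also higher in both SKA3-KD libraries, with changes of 0.39 and 0.24 that did not pass (limma adjusted p = 0.126 and 0.0781). PVT1 stood at 2.75 and 3.11 FPKM in NC and at 3.68 and 3.07 FPKM in SKA3-KD, with overlap between the groups.

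**Figure D4:**
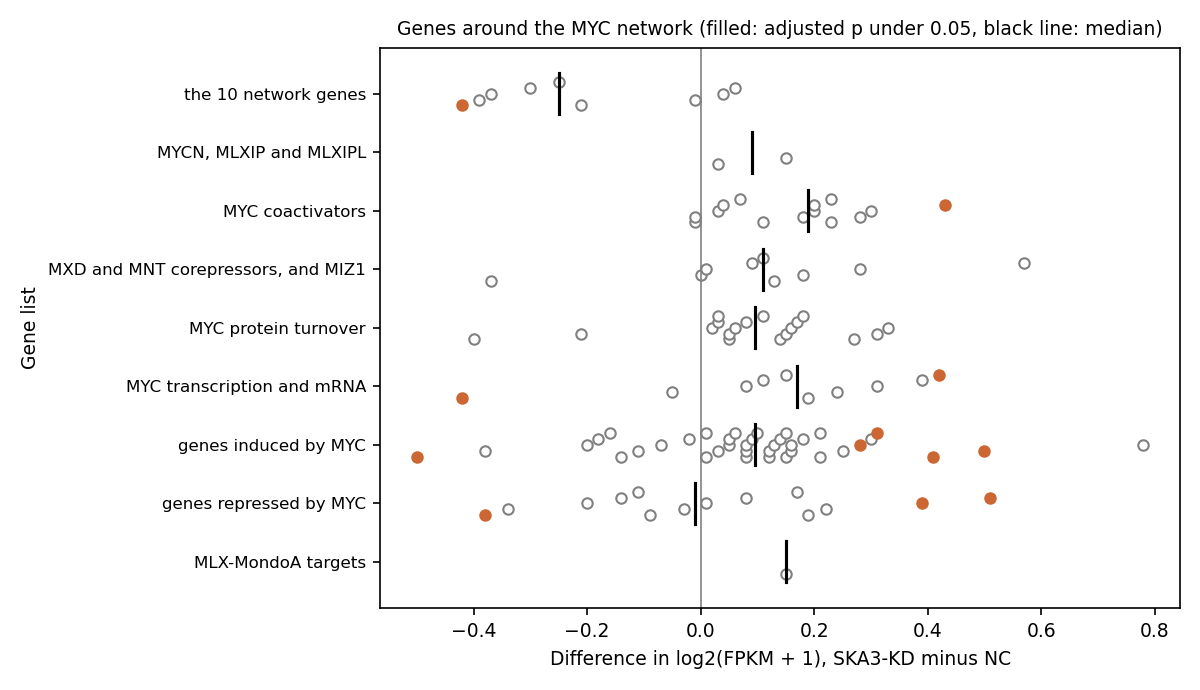
Change in log2(FPKM + 1), SKA3-KD minus NC, of every tested gene in the network and in 8 lists around it, 1 circle per gene, filled where the adjusted p was under 0.05, with a black line at the median of each list. The network genes have a median of -0.25, and the medians of the other lists run from -0.01 to 0.19.

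Of 40 genes that MYC is known to induce, 38 were tested, 1 fell and 4 rose, where 6.11% of all genes were called lower and 6.16% higher. The median was 0.10 against 0.01 over all genes, and 29 of the 38 were above 0, against 6520 of all 12645 genes. CAD, the enzyme that starts pyrimidine synthesis and a classic MYC target, rose from 21.7 and 23.5 FPKM in NC to 32.3 and 32.6 FPKM in SKA3-KD (change 0.50, limma adjusted p = 0.0186). RRP12, a ribosome assembly factor, rose by 0.41, and C1QBP, a mitochondrial protein, by 0.28. The chaperonin genes HSPD1 and HSPE1, which share a promoter region, went opposite ways. HSPD1 fell from 243 and 219 FPKM to 169 and 156 FPKM (change -0.50, limma adjusted p = 0.0249), while HSPE1 rose from 14.7 and 14.3 FPKM to 18.5 and 18.0 FPKM (change 0.31, limma adjusted p = 0.0383). Reads of both may have been shared with their processed pseudogenes, so these values are uncertain. TERT, the telomerase catalytic subunit, was named after its values were seen. It stood at 0.416 and 0.577 FPKM in NC and at 1.40 and 1.73 FPKM in SKA3-KD, on 23 to 94 reads, and its change of 0.78 did not pass (limma adjusted p = 0.0524). With means of 0.497 FPKM in NC and 1.57 FPKM in SKA3-KD, TERT reached the limit for testing only through SKA3-KD. The filter thus favoured a higher value for it. The E-box letters stood in the promoter windows of 21 of the 33 induced genes with a window, or 63.6%, in a list written for what MYC is known to induce, against 12.9% of the tested genes with a window.

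Of 16 genes that MYC is known to repress, 14 were tested, with a median of -0.01, 7 above and 7 below 0, and 1 called lower and 2 higher, where 6.11% and 6.16% of all genes were. CDKN1A, the CDK inhibitor p21 that MYC represses through MIZ1, fell from 40.2 and 42.3 FPKM in NC to 31.4 and 31.3 FPKM in SKA3-KD (change -0.38, limma adjusted p = 0.0238). GADD45B, a stress gene of growth arrest, rose by 0.51 (limma adjusted p = 0.0207), and KLF6, a zinc finger factor, by 0.39 (limma adjusted p = 0.0367). NDRG1, the most abundant gene of the list, stood at 72.0 and 84.0 FPKM in NC and at 70.5 and 108 FPKM in SKA3-KD, and its groups overlapped. Limma voom called 2 of the list lower and 2 higher, against 12.1% and 13.5% of all genes.

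**Figure D5:**
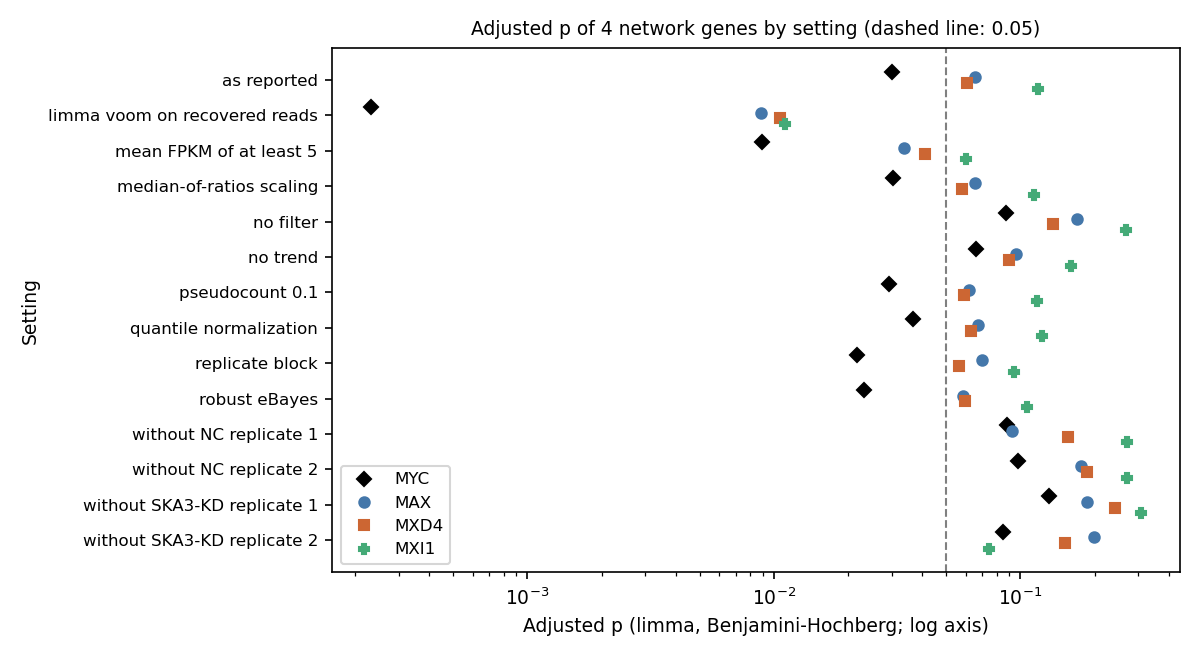
Adjusted p of MYC, MAX, MXD4 and MXI1 (log axis) in the reported fit and under each alternative setting, with a dashed line at 0.05. MYC lies left of the line in the reported fit and in 7 of the 9 alternatives with all 4 libraries, and none of the 4 genes lies left of it when a library is left out.

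Genes whose pattern over the 4 libraries was most like that of MYC were sought in the 4600 genes whose mean reached 10 FPKM, by the Euclidean distance between log2(FPKM + 1) values after each gene's mean was subtracted. The 3 nearest were SDHAF1, an assembly factor of succinate dehydrogenase (distance 0.031), STOM, a membrane protein (0.039), and CHPF2, an enzyme of chondroitin sulfate synthesis (0.040). Their levels were 15.3, 16.4, 11.4 and 12.3 FPKM for SDHAF1, 50.4, 53.9, 38.2 and 40.1 FPKM for STOM, and 25.0, 27.8, 19.1 and 20.3 FPKM for CHPF2, with the NC libraries first. A likeness over 4 libraries describes only these libraries.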

How the data were processed

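Illumina libraries of 4 TU-177 cultures were used, 2 NC and 2 SKA3-KD. The authors deposited FPKM values per gene and library, listed by Ensembl identifier. The submitters' processing notes name the build hg19 and Bowtie2 2.2.8, HISAT2, StringTie 1.3.1 and Cuffdiff 2.1.1, without their roles, and the annotation and strand setting are not given in the sources used here. FPKM removes gene length and library size but not composition. Symbols came from a gene name table (94.1% of identifiers). The FPKM steps gave whole reads (within 0.01) for 99.8% of the genes tested and all 10 members, with exon lengths of GENCODE 29 or lengths found from the proportions between libraries. The latter served 38.5% of the genes tested, with MYC, MXD1 and MGA among them. Those lengths were chosen to make the values whole, so wholeness is no check on them. Recovered reads summed to 107.3% to 109.0% of the library sizes, an excess left unexplained, so the reads and the limma voom results are approximate. Replicates differed by more than sampling noise (chi-square per degree of freedom 4.0 in NC and 3.94 in SKA3-KD).

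The test was limma 3.58.1 in R 4.3.3 (lmFit, eBayes with a trend, two-sided) on log2(FPKM + 1), for genes with a mean of at least 1 FPKM, with Benjamini-Hochberg adjustment over 12645 genes. The limma and limma voom fits were also run on simulated reads with the same spread for every gene. The changes put into them were larger than those of the tested network genes in the reported fit. The recovery of reads from FPKM was not simulated, so these runs do not check it or changes of the network's size. An exact permutation test of 2 against 2 libraries has a smallest possible p of 0.333, and limma instead pools the spread over genes. Members, lists and tests were chosen with earlier results of these data known. Named in the text were SKA3, all members, in the 8 lists the called genes and at most 2 of the most abundant not called, and the 3 genes nearest MYC. Promoters came from RefSeq (GRCh38.p14). Python 3.11.15 with pandas 2.3.3 was used for the remaining steps.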

Additional observations from a re-analysis of the deposited data

How the results depend on the processing

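Under 9 alternatives with all 4 libraries the log2 change of MYC stayed between -0.43 and -0.42, and it was called lower in 7, the exceptions being no filter (-0.42, adjusted p = 0.0875, limma) and no trend (-0.42, 0.0662). With 1 library left out it ran from -0.48 to -0.36 and was not called, and 0 members were called, with 0 to 135 lower and 0 to 46 higher genes over the whole table and 0 in the lists around the network. The lone library of a group is there assumed to vary like the others. MAX (-0.39) and MXD4 (-0.30) were called at a mean FPKM of at least 5, and MAX (-0.44), MXD4 (-0.34) and MXI1 (-0.41) with limma voom on the recovered reads. MNT changed sign, to 0.01 with limma voom and 0 under quantile normalization, and ran from -0.14 to 0.13 with 1 library left out, never past the threshold. Members called lower, 1 as reported, were 4 with limma voom, 3 at a mean FPKM of at least 5, 0 without the filter, 0 without the trend and 4 at an unadjusted p under 0.05. Over all genes, 772 lower and 779 higher as reported, the counts were 1531 and 1705 with limma voom, 81 and 48 without the filter, 381 and 312 without the trend, and 1912 and 2046 at an unadjusted p under 0.05. In the lists around the network, 3 lower and 8 higher as reported, limma voom gave 7 and 27, dropping the filter 0 and 0, and dropping the trend 0 and 3, with 5 lower at a mean FPKM of at least 5. With the replicate number as a block, 14 genes of these lists were higher, 965 and 1002 genes were called lower and higher over the table, and MYC kept its call. The numbers are not said to mark a shared culture, and the deviations of same-numbered libraries from their group means had a correlation of 0.10 across genes. At a mean FPKM of at least 5, MNT, MXD3 and MXD1 have no value. The causes of these moves were not tested.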
